A study of Mus musculus with 6 samples.

Results

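Of the 43271 genes in the deposited count table, 43 were taken as members. They encode part of the machinery that brings nascent proteins to the endoplasmic reticulum (ER) and moves them into or through its membrane. They were chosen by name and found by Ensembl identifier, 3 of them under an older symbol (Wrb for Get1, Asna1 for Get3 and Caml for Camlg). Their RNA was compared in primary brain microvascular endothelial cells from wild-type C57BL/6 mice, which form the inner lining of the capillaries of the brain. Confluent monolayers had received 5000 ng/ml of dolutegravir (DTG), a drug against the integrase of HIV, over 24 h (3 libraries) or the vehicle dimethyl sulfoxide (DMSO, 3 libraries). All cultures were grown at passage 2 to 6 in the same supplemented endothelial medium with 5% serum. Library names carry a P4 or P5 tag that the labels do not define. The DTG libraries are P5, P4 and P4 for replicates 1, 2 and 3, and the DMSO libraries are P4, P5 and P5. The names also hold a number with no stated meaning, which is 2, 2 and 3 for DTG and 1, 1 and 3 for DMSO, so 2 of the 3 libraries in each group share it. The name of DTG replicate 1 is spelled with DIG in place of DTG, while its title and treatment label say DTG. The labels do not state whether replicate libraries are separate cultures, and the p-values therefore cover only the spread between these libraries, which may be technical.

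Proteins for secretion or for the cell surface begin with a hydrophobic signal, which the signal recognition particle (SRP) binds as it leaves the ribosome. The SRP receptor hands the ribosome to the Sec61 channel, which works with the translocon-associated protein (TRAP) complex, TRAM and Sec62 and Sec63, and signal peptidase then cuts the signal off. Other routes serve membrane proteins: the ER membrane complex (EMC) and the GET pathway insert transmembrane segments that lie near a protein's end, and the multipass translocon assembles at Sec61 for proteins with many segments. Brain endothelial cells depend on these routes for their junction proteins, transporters and secreted basement membrane.

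Total counts were between 51344169 and 56316335 in the DTG libraries and between 41162353 and 55998253 in the DMSO libraries, so counting error is small for all members but the lowest. All 12 endothelial markers listed (among them Cdh5, Pecam1 and Vwf) were well detected. In edgeR's test 9 of the 12 passed as lower in DTG, as did 29.3% of all genes tested (adjusted p under 0.05). The other 3, Cdh5 among them (0.17 log2, adjusted p = 0.0994), did not pass. The summed level of the 12 markers was 7863 to 8188 CPM (counts scaled to a common library size) in DTG libraries and 12280.0 to 13375 CPM in DMSO libraries. Of the lists for other cell types, all 8 mural and all 7 microglia and leukocyte markers were under 1 CPM in both groups, with Rgs5, Kcnj8, Tyrobp and P2ry12 at 0 counts. The mural markers summed to 0.892 to 1.51 CPM in DTG and 0.607 to 0.737 CPM in DMSO, and the microglia and leukocyte markers to 0.186 to 0.373 CPM in DTG and 0.161 to 0.236 CPM in DMSO. The 6 astrocyte markers summed to 203 to 249 CPM in DTG and 56.7 to 65.4 CPM in DMSO. Gja1, which endothelium also expresses, was the only astrocyte marker at 1 CPM or more, and Aqp4 was at 0. The 5 neuron markers summed to 2.21 to 6.04 CPM in DTG and 0.158 to 0.322 CPM in DMSO, with only Tubb3 at 1 CPM or more and Map2 at 0. The 6 fibroblast markers summed to 7.76 to 8.68 CPM in DTG and 6.52 to 7.50 CPM in DMSO, with only Pdgfra at 1 CPM or more. Of these markers the mural Pdgfrb, the fibroblast Col1a1, Gja1 and Tubb3 passed as higher in DTG, by 1.86, 0.93, 1.94 and 5.43 log2 (edgeR, adjusted p = 0.000594, 0.0179, 3.26e-07 and 2.00e-05). The part of such cells in the results was not tested.

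In DTG cultures the genes for targeting, the Sec61 channel, TRAP and signal peptidase rose together, whereas the genes of the EMC, GET and multipass routes were split. Of the 43 members, all of which passed the filter on low counts, 31 rose, 4 fell and 8 did not pass. A gene passed at an adjusted p under 0.05 in edgeR's quasi-likelihood test with Benjamini-Hochberg adjustment over all 14101 genes tested, and every adjusted p below comes from that fit. Across all genes tested, 27.4% rose and 29.3% fell. The median log2 change of the members was 0.65, against -0.01 for all genes tested. Of the 25 genes for targeting, translocation and signal cleavage 23 rose and 2 (Sec61a2 and Sec62) did not pass, with a median log2 change of 0.99. Of the 18 EMC, GET and multipass genes 8 rose, 4 fell and 6 did not pass, with a median of 0.11. The medians of these 3 groups of genes turned below 0 with library-size scaling (-0.081 for EMC, -0.0022 for GET and -0.040 for multipass), and that of the EMC also with upper-quartile scaling (-0.0034). Among the 31 members that rose, 13 did so by 1 or more on the log2 scale, as did 6.28% of all genes tested. In bulk RNA, a change in the mix of cells and a change in RNA per cell cannot be told apart.

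**Figure D1:**
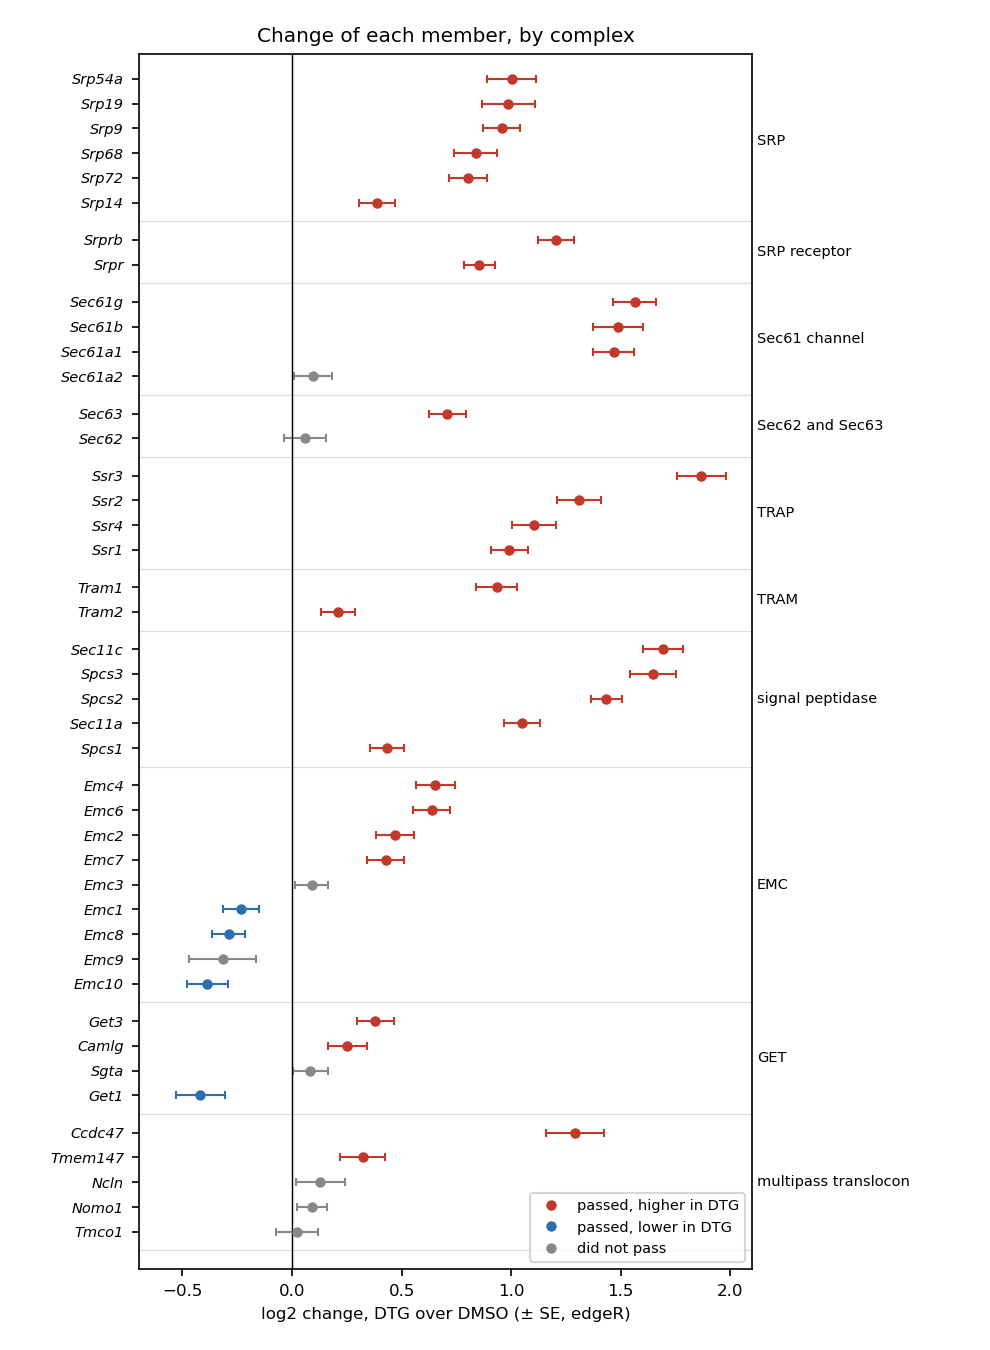
Log2 change of DTG over DMSO for each of the 43 members (x axis, points with SE from edgeR), grouped by complex and ordered within it. Red points passed as higher, blue points passed as lower and grey points did not pass. The signal peptidase, TRAP and Sec61 genes reach furthest to the right, with Ssr3 at 1.87, and the EMC genes lie on both sides of 0.

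The groups did not overlap for 36 members. In 32 of them each DTG library lay above each DMSO library, as in 31.1% of all genes tested, and in 4 each DTG library lay below, as in 33.1% of all genes tested. Summed over the 43 members, the level was 7360.1, 8019 and 7904 CPM in DTG replicates 1, 2 and 3, against 4076, 4193 and 4195 CPM in the DMSO libraries. DTG replicate 1, the P5 library of its group, was lowest in this sum, and was nearest to DMSO for 22 of the 31 members that rose and for 3 of the 4 that fell. How often this held over all genes tested was not counted, so it cannot be called particular to the members.

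Promoters were read for the members that rose and fell because ER stress factors of the ATF6, XBP1 and ATF4 families bind known short elements. RefSeq windows (GRCm38.p6, 250 bases before to 50 after the start site) were found for 33 of the 43 members. Srp19, Srp68, Sec61a1, Ssr2, Tram1, Spcs3, Sec11c, Emc2, Emc8 and Camlg had no window and were not searched. Among them are large rises, as in Sec11c (1.69 log2), Spcs3 (1.65), Sec61a1 (1.47) and Ssr2 (1.31). Searched on both strands, none of the 33 held the ER stress element ERSE (CCAAT and CCACG with 9 bases between), its variant ERSE-II (ATTGG and CCACG with 1 base between), the core TGACGTGG of XBP1 and ATF6 sites or the ATF4 composite site TGATGNAAT. Among the 10331 tested genes with a window, these were held by 0.136%, 0.0871%, 0.929% and 0.561%. At such low shares, finding none in 33 windows cannot tell the members from other genes. Only exact matches within the windows were searched, so sites elsewhere or with other letters would be missed. The 5-letter core CCACG, which is part of both stress elements, was in 22 of 33 members (66.7%) and in 51.2% of the tested genes with a window. It was in 14 of the 22 members with a window that rose, in 2 of the 3 that fell and in 6 of the 8 that did not pass. Windows of 1 member that rose and 1 that fell are shown, chosen after their values were seen, with the core or its complement in capitals. They are Ccdc47 (chr11:106216318-106216617, minus strand, core from base -248 relative to the start site) and Get1 (chr16:96145150-96145449, plus strand, complement from -130).
Ccdc47: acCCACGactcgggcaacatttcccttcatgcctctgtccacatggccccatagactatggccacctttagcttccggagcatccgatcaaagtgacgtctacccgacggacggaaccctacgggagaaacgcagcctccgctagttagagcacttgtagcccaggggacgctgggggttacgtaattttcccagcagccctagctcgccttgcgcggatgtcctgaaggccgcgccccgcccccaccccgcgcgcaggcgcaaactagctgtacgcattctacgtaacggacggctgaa
Get1: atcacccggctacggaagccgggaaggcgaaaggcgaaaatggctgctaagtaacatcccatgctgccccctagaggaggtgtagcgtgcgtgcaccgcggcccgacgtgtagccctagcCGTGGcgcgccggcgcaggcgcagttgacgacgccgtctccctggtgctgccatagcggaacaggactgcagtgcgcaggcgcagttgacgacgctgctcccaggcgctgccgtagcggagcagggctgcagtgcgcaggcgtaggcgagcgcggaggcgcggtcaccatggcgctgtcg

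All 6 SRP protein genes rose, with a median log2 change of 0.90 and a range of 0.39 to 1.00. Srp54a encodes the GTPase that binds the signal and had 293, 358 and 351 CPM in DTG libraries, against 155, 154 and 192 CPM in DMSO libraries. The groups were well apart, and the log2 change was 1.00 ± 0.11 (SE, adjusted p = 3.92e-05). Mouse Srp54a shares 79.9% of its longest coding transcript, in words of 31 bases, with other genes, chiefly the copies Srp54b and Srp54c, and how the authors' counting divided such reads is not stated. Counts summed over the 3 copies changed by 1.04 log2 (edgeR, adjusted p = 1.50e-05). Srp14, which with Srp9 forms the domain that slows translation, changed least: it had 106, 100.3 and 107 CPM in DTG libraries, against 77.7, 87.7 and 74.2 CPM in DMSO libraries (log2 change 0.39 ± 0.08, adjusted p = 0.00253). Its partner Srp9 rose by 0.96 log2. Srp68 and Srp72, which bind each other on the SRP RNA, rose by 0.84 and 0.80, and the assembly factor gene Srp19 by 0.99.

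Both receptor subunits rose. Srprb, the subunit anchored in the membrane, had 135, 147 and 147 CPM in DTG libraries, against 59.2, 67.5 and 59.4 CPM in DMSO libraries, a log2 change of 1.20 ± 0.08 (adjusted p = 2.03e-06). Srpr, the subunit that meets SRP, had 293, 305 and 302 CPM in DTG libraries, against 165, 174 and 159 CPM in DMSO libraries (0.85 ± 0.07, adjusted p = 6.44e-06). Neither gene's groups came close to overlapping. Srpr and Srprb share 48.0% and 29.0% of their longest coding transcripts with other annotated genes (Gm6733 and Gm7593, and Gm20425).

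Of the 4 Sec61 genes 3 rose by nearly the same amount and the second alpha gene did not pass. Sec61a1, the pore-forming subunit, had 561, 684 and 656 CPM in DTG libraries, against 244, 230.0 and 213 CPM in DMSO libraries (1.47 ± 0.10 log2, adjusted p = 1.43e-06). Sec61g, a small subunit with 1 membrane span, had 221, 215 and 232 CPM in DTG libraries, against 80.2, 81.2 and 64.4 CPM in DMSO libraries (1.56 ± 0.10, adjusted p = 1.14e-06). For both genes the lowest DTG value lay far above the highest DMSO value. Sec61b, the other small subunit, rose by 1.49 ± 0.11 log2, and 72.9% of its transcript is shared with other genes (Gm10320, Gm33666 and Gm5870 share most). Sec61a2, a close paralog of the pore gene, had 42.0, 36.2 and 37.4 CPM in DTG libraries, against 37.4, 33.7 and 37.1 CPM in DMSO libraries. Its groups overlapped (0.09 ± 0.09 log2, adjusted p = 0.374).

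Sec62 and Sec63 act together at Sec61 on precursors that need help to enter, and only Sec63 passed here. Sec63, whose J domain recruits the chaperone BiP, had 278, 279 and 277 CPM in DTG libraries, against 159, 162 and 190.1 CPM in DMSO libraries (0.71 ± 0.08 log2, adjusted p = 6.58e-05). Sec62 had 123, 112 and 114 CPM in DTG libraries, against 101, 108 and 127 CPM in DMSO libraries, with overlapping groups (0.06 ± 0.09 log2, adjusted p = 0.613).

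**Figure D2:**
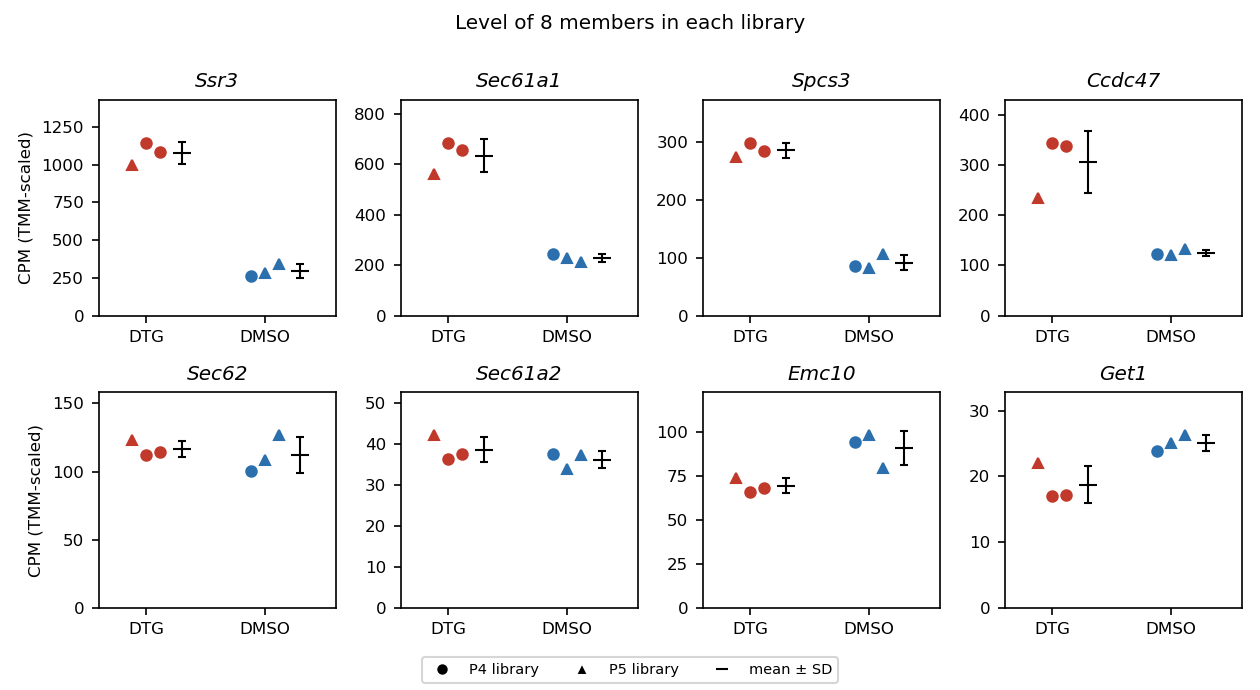
Level of 8 members in CPM (y axis from 0) in each DTG and DMSO library, with the mean and SD of 3 libraries beside the points. Circles are P4 and triangles P5 libraries. Ssr3, Sec61a1, Spcs3 and Ccdc47 are higher in each DTG library, Sec62 and Sec61a2 overlap, and Emc10 and Get1 are lower in each DTG library.

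All 4 TRAP genes rose, with a median log2 change of 1.21. Ssr3 (ENSMUSG00000027828), which encodes the gamma subunit, had 1001, 1144 and 1086 CPM in DTG libraries, against 260.2, 281 and 345 CPM in DMSO libraries. This was the largest change of any member, at 1.87 ± 0.11 log2 or 3.65-fold (adjusted p = 8.89e-07). Ssr1, the alpha subunit, changed least of the 4, with 359, 391 and 378 CPM in DTG libraries, against 174, 184 and 209 CPM in DMSO libraries (0.99 ± 0.09, adjusted p = 8.30e-06). Ssr2 and Ssr4, the beta and delta subunits, rose by 1.31 and 1.10 log2. The 2 genes of TRAM, a membrane protein beside Sec61, differed in size of change. Tram1 had 193, 215 and 201 CPM in DTG libraries, against 97.3, 101 and 120.2 CPM in DMSO libraries (0.93 ± 0.09 log2, adjusted p = 2.15e-05). Tram2 had 71.8, 78.2 and 75.9 CPM in DTG libraries, against 67.5, 60.4 and 67.5 CPM in DMSO libraries (0.21 ± 0.08 log2, adjusted p = 0.0406). Leaving out DMSO replicate 1 or 2 ended the Tram2 call (adjusted p = 0.0586 and 0.152), as did leaving out DTG replicate 2 or 3 (0.110 and 0.0931). Its adjusted p ran between 0.0153 and 0.687 over the alternatives.

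Signal peptidase genes rose in 5 of 5 cases, with a median log2 change of 1.43. Sec11c, a catalytic subunit, had 53.0, 61.0 and 60.2 CPM in DTG libraries, against 18.5, 18.8 and 16.7 CPM in DMSO libraries (1.69 ± 0.09 log2, adjusted p = 4.25e-07). Sec11a, the alternative catalytic subunit, had 128, 143 and 150.3 CPM in DTG libraries, against 65.5, 70.2 and 68.1 CPM in DMSO libraries (1.05 ± 0.08, adjusted p = 4.28e-06). The groups were far apart for both. Among the accessory subunits Spcs3 and Spcs2 rose by 1.65 and 1.43 log2. Spcs1 changed least, with 90.6, 87.2 and 88.7 CPM in DTG libraries, against 62.1, 71.3 and 64.0 CPM in DMSO libraries (0.43 ± 0.08, adjusted p = 0.000879).

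Paralogs within a pair took different shares of their pair in DTG. Shares were computed within each library from counts per length of the longest coding transcript, so they do not depend on scaling. Sec11c made up 39.3%, 39.9% and 38.5% of Sec11c and Sec11a together in DTG libraries, against 30.6%, 29.5% and 27.7% in DMSO libraries. Sec61a2 made up 8.84%, 6.42% and 6.87% of the alpha pair in DTG libraries, against 16.6%, 16.0% and 18.4% in DMSO libraries. Tram2 made up 14.4%, 14.2% and 14.6% of its pair in DTG libraries, against 23.9%, 21.3% and 20.3% in DMSO libraries. None of the 3 shares overlapped between groups. The means differed by 9.999, -9.60 and -7.43 percentage points for Sec11c, Sec61a2 and Tram2 (DTG minus DMSO, 3 pairs compared). In each of the 3, a two-sided exact permutation test gave p = 0.1, the smallest that 3 against 3 libraries allow, so none could pass.

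**Figure D3:**
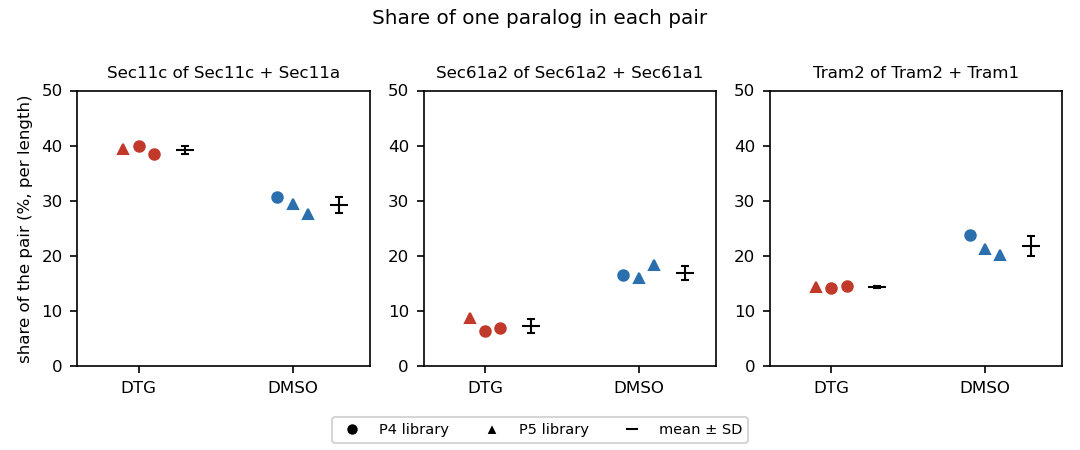
Share of Sec11c, Sec61a2 and Tram2 in their pairs (percent of counts per transcript length, y axis from 0) in each DTG and DMSO library, with mean and SD of 3 libraries. Circles are P4 and triangles P5 libraries. The DTG libraries lie above for Sec11c and below for Sec61a2 and Tram2.

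Of the 9 EMC genes among the members 4 rose, 3 fell and 2 did not pass, with a median log2 change of 0.09. A further EMC subunit gene, Mmgt1, is among the partners below and is not in the EMC counts or sums. Across all genes tested 27.4% rose and 29.3% fell, so calls in both directions are not particular to the EMC. With upper-quartile or library-size scaling 4 of the 9 fell. Emc4 (ENSMUSG00000027131), a membrane subunit, rose most, with 77.5, 82.5 and 86.9 CPM in DTG libraries, against 54.0, 55.9 and 47.0 CPM in DMSO libraries (0.65 ± 0.09 log2, adjusted p = 0.000136). Emc6, which pairs with Emc3 in the insertase core, rose by 0.64, the cytosolic scaffold gene Emc2 by 0.47 and Emc7, which has a luminal domain, by 0.43. Emc10, a luminal subunit, fell, with 74.2, 66.0 and 68.2 CPM in DTG libraries, against 94.5, 98.2 and 79.8 CPM in DMSO libraries (-0.39 ± 0.09 log2, adjusted p = 0.00508). Its groups did not overlap, though DMSO replicate 3 and DTG replicate 1 came near each other. Emc8, a cytosolic subunit, fell as well, with 37.5, 38.7 and 37.3 CPM in DTG libraries, against 43.9, 49.0 and 45.8 CPM in DMSO libraries (-0.29 ± 0.08, adjusted p = 0.00800). Without DTG replicate 3 that call was lost (adjusted p = 0.0685, range over alternatives 0.000471 to 0.0685).

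Emc1, the large luminal subunit, had 39.7, 36.6 and 35.3 CPM in DTG libraries, against 45.6, 41.4 and 44.1 CPM in DMSO libraries (-0.23 ± 0.08 log2, adjusted p = 0.0300). Leaving out DMSO replicate 1, DTG replicate 2 or DTG replicate 3 ended the call (adjusted p = 0.0985, 0.151 and 0.210), and its adjusted p ran between 0.00208 and 0.210 over the alternatives. The annotation places an opposite-strand gene, 2700016F22Rik, over 29.3% of the exonic bases of Emc1, and the strand setting of the counting is not stated. Emc3, the insertase subunit itself, had 141, 132 and 134 CPM in DTG libraries, against 125, 136 and 122 CPM in DMSO libraries, and its groups overlapped (0.09 ± 0.07 log2, adjusted p = 0.330). Emc9, a paralog of Emc8 at far lower counts, had 4.37, 3.21 and 3.53 CPM in DTG libraries, against 4.59, 5.11 and 4.12 CPM in DMSO libraries (-0.32 ± 0.15, adjusted p = 0.103). It passed as lower without DTG replicate 1 (adjusted p = 0.0284) and with upper-quartile or library-size scaling (0.0452 and 0.0229), and its adjusted p ran between 0.0229 and 0.370 over the alternatives.

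The Sec61 and TRAP genes were higher relative to the EMC genes in each DTG library than in any DMSO library. The summed level of the 4 Sec61 and 4 TRAP genes was 4.47, 5.01 and 4.80 times that of the 9 EMC genes in DTG libraries, against 1.94, 1.83 and 2.03 times in DMSO libraries. These ratios are free of scaling, since both sums come from the same library. The ratios were not among the planned comparisons. They set complexes that rose against one whose genes were split, so their separation follows from the changes given above. Ssr3 and Sec61a1 weighed most in the Sec61 and TRAP sum (means of 1077 and 634 CPM in DTG), and Sec61a2 did not pass. The EMC sum itself was 593, 590.0 and 599 CPM in DTG libraries, against 517, 559 and 510.2 CPM in DMSO libraries.

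The GET genes, which serve proteins anchored by a single C-terminal segment, gave 2 that rose, 1 that fell and 1 that did not pass. For all genes tested the shares were 27.4% that rose and 29.3% that fell. Both calls that rose, Get3 and Camlg, were lost with library-size scaling (edgeR, adjusted p = 0.0645 and 0.472). Get3, the ATPase that carries the anchor, had 84.5, 81.5 and 84.2 CPM in DTG libraries, against 67.3, 68.3 and 56.5 CPM in DMSO libraries (0.38 ± 0.09 log2, adjusted p = 0.00369). Get1 (ENSMUSG00000023147), 1 of the 2 subunits of the membrane receptor for Get3, fell to 22.0, 17.0 and 17.1 CPM in DTG libraries, against 23.8, 25.0 and 26.3 CPM in DMSO libraries. This was the most negative change of any member, -0.42 ± 0.11 log2 (adjusted p = 0.00909), with DTG replicate 1 close to the DMSO values. It no longer passed when DTG replicate 2 or 3 was left out (adjusted p = 0.0533 and 0.0580), and its adjusted p ran between 0.000819 and 0.0580 over the alternatives. Camlg, the receptor partner of Get1, had 16.9, 15.2 and 16.1 CPM in DTG libraries, against 13.1, 13.8 and 13.6 CPM in DMSO libraries (0.25 ± 0.09, adjusted p = 0.0345). That call ended when DMSO replicate 1, DMSO replicate 2 or DTG replicate 3 was left out (adjusted p = 0.102, 0.0661 and 0.0789), and its adjusted p ran between 0.0214 and 0.472. Sgta, which captures the anchors first, had 109, 98.7 and 98.0 CPM in DTG libraries, against 99.5, 100.2 and 88.3 CPM in DMSO libraries, and its groups overlapped (0.08 ± 0.08, adjusted p = 0.401).

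In the multipass translocon, Ccdc47 stood out. It encodes a chaperone subunit that shields unassembled membrane segments, and it had 235, 345 and 339 CPM in DTG libraries, against 123, 120.0 and 133 CPM in DMSO libraries (1.29 ± 0.13 log2, adjusted p = 2.63e-05). DTG replicate 1 was well below the other DTG libraries, and the log2 difference was 1.47 within P4 and 0.90 within P5 libraries. Of the back-of-Sec61 subunits, Tmem147 rose, with 70.6, 60.5 and 65.2 CPM in DTG libraries, against 50.3, 59.6 and 47.0 CPM in DMSO libraries (0.32 ± 0.10, adjusted p = 0.0200). DTG replicate 2 and DMSO replicate 2 nearly met, and the call was lost without DMSO replicate 1 or 3 (adjusted p = 0.0717 and 0.0671, range over alternatives 0.00438 to 0.235). Its partners Ncln and Nomo1 did not pass. Ncln had 127, 103 and 104 CPM in DTG libraries, against 114, 103 and 88.7 CPM in DMSO libraries (0.13 ± 0.11, adjusted p = 0.346). Nomo1 had 378, 386 and 365 CPM in DTG libraries, against 362, 350.1 and 347 CPM in DMSO libraries, a small separation without overlap (0.09 ± 0.07, adjusted p = 0.289). Tmco1, an insertase of the EMC3 and Get1 family, had 59.2, 52.0 and 57.0 CPM in DTG libraries, against 48.6, 60.1 and 56.9 CPM in DMSO libraries, with overlap (0.02 ± 0.09, adjusted p = 0.854).

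**Figure D4:**
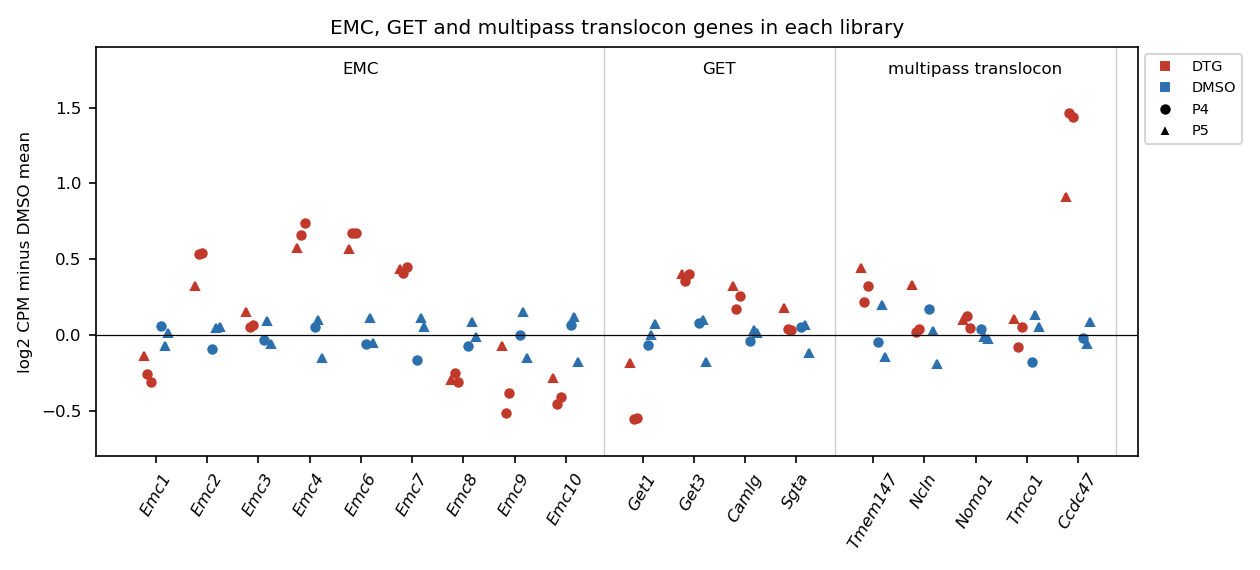
Log2 CPM of the EMC, GET and multipass translocon genes in each library, minus the mean of the DMSO libraries (y axis). DTG libraries are red and stand left of the blue DMSO libraries for each gene, with circles for P4 and triangles for P5. In DTG, Ccdc47 lies far above the DMSO libraries. Emc2, Emc4, Emc6, Emc7, Get3, Camlg, Tmem147 and, narrowly, Nomo1 also lie above them, and Emc1, Emc8, Emc10 and Get1 lie below.

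The tags are unevenly spread over the groups, so differences were also taken within each tag. All 31 members that rose and all 4 that fell had the same sign within P4 (2 DTG and 1 DMSO libraries) as within P5 (1 DTG and 2 DMSO libraries). Among the 31 the median log2 difference was 1.09 within P4 and 0.80 within P5, and 24 of them were larger within P4. The share of all genes tested with a larger difference within P4 was not counted. The calls came from these same libraries, so members that passed would mostly keep their sign within each tag. The shared sign is therefore no separate support, and how often it held among all genes that passed was not counted. Among the 8 that did not pass, 5 had the same sign in both. With the tag as a term in the edgeR fit, 30 members rose and 4 fell, Tram2 being the gene lost (adjusted p = 0.0725).

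**Figure D5:**
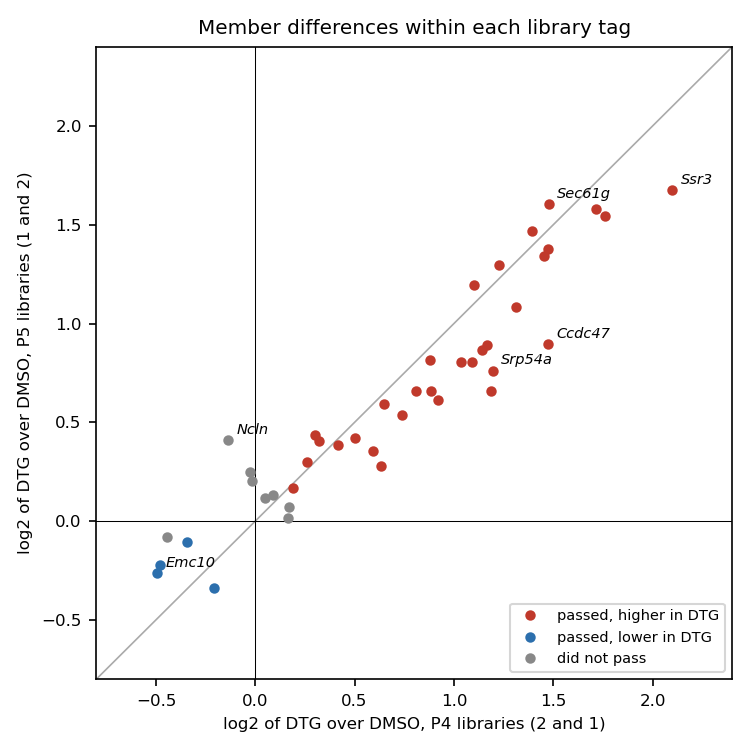
Log2 difference of DTG over DMSO for each of the 43 members within the P4 libraries (x axis, 2 DTG and 1 DMSO) and within the P5 libraries (y axis, 1 DTG and 2 DMSO), with the line of equality. Red members passed as higher, blue as lower and grey did not pass. Most red points lie below the line, Ccdc47 among them at 1.47 and 0.90.

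Genes that work next to these complexes, or add subunits or copies to them, were taken from a further list of 20 partners. Of these 13 rose and 7 did not pass (median log2 change 0.29), while 27.4% of all genes tested rose and 29.3% fell. BiP, encoded by Hspa5, seals Sec61 and pulls chains inward, and its gene had 10660.0, 14759 and 14712 CPM in DTG libraries, against 675, 732 and 754 CPM in DMSO libraries (4.22 ± 0.14 log2, adjusted p = 2.92e-08). The gene of its exchange factor Hyou1 had 1789, 2228 and 2038 CPM in DTG libraries, against 164, 152 and 154 CPM in DMSO libraries (3.69 ± 0.10, adjusted p = 6.63e-09). The other exchange factor gene, Sil1, differed by 0.12 and did not pass (adjusted p = 0.231). No member changed by as much as Hspa5 or Hyou1.

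Partners at the ribosome and after cleavage also rose. Lrrc59, a ribosome-binding ER protein, had 561, 706 and 674 CPM in DTG libraries, against 235, 215 and 215 CPM in DMSO libraries (1.55 ± 0.10 log2, adjusted p = 1.22e-06). Rrbp1, the ribosome receptor p180, had 456, 548 and 514 CPM in DTG libraries, against 233, 229 and 234 CPM in DMSO libraries (1.12 ± 0.08, adjusted p = 3.38e-06). Hm13, the signal peptide peptidase that degrades cleaved signals, had 219, 257 and 245 CPM in DTG libraries, against 97.0, 101 and 94.0 CPM in DMSO libraries (1.30 ± 0.08, adjusted p = 1.18e-06). For each of the 3 the groups were far apart. The SRP54 copies Srp54b and Srp54c had 81.1, 80.4 and 82.3 CPM and 149, 192 and 192 CPM in DTG libraries, against 44.4, 36.9 and 33.5 CPM and 75.2, 81.0 and 93.0 CPM in DMSO libraries. They rose by 1.09 and 1.10 log2. Naca and Btf3, which form the nascent chain complex on ribosomes, rose by 0.21 and 0.51, the ER shape protein gene Ckap4 by 0.22, and Get4 by 0.32.

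The partner subunits of the insertion complexes were divided between genes that rose and genes that did not pass. Wdr83os, which pairs with Ccdc47, and Rab5if, which pairs with Tmco1, rose by 0.47 and 0.26 log2 (adjusted p = 0.00230 and 0.0159). Mmgt1, the fifth EMC subunit, differed by 0.15, and Bag6 and Ubl4a, which work with Get4, by -0.08 and 0.23 (adjusted p = 0.337, 0.375 and 0.0537). Ktn1, Tmem208 and Zfand2b differed by 0.12, 0.10 and -0.16 and did not pass.

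Other machinery offers a scale for these changes, beside the 27.4% of all genes tested that rose and the 29.3% that fell. Of 11 measured genes of the oligosaccharyltransferase, which attaches sugars at the Sec61 channel, 10 rose and 1 (Ost4) did not pass, with a median log2 change of 0.98. Ostc, the subunit that docks the enzyme at the channel, rose most, by 1.68. Of 22 genes for protein import into mitochondria 10 rose, 1 fell and 11 did not pass, with a median of 0.29 and a largest change of 0.84. The gene that fell was Oxa1l, the inner membrane insertase (-0.36 ± 0.10, adjusted p = 0.0128). The medians are 0.99 for the 25 targeting, translocation and cleavage genes and 0.11 for the 18 EMC, GET and multipass genes. Whether these lists differ was not tested.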

How the data were processed

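The deposited table holds whole-number counts, not normalized, with a row for each Ensembl identifier and a column for each library. Per the labels' protocols RNA was isolated with TRIzol and sequenced after TruSeq Stranded mRNA preparation, which selects poly(A) RNA and marks strand. The genome build was GRCm39 per the submitters' processing notes. For the aligner, counter, strand setting and annotation, no name is given in the sources used here. Names came from a supplied table of identifiers and symbols, which matched 38606 genes (89.2%). Transcript length and overlap came by identifier from GENCODE M21 and promoter windows from RefSeq, both on GRCm38, so no coordinates are given on GRCm39.

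The test was run with edgeR 4.0.16 in R 4.3.3: filterByExpr by group (14101 genes), TMM scaling, and the quasi-likelihood F-test with robust dispersion and group as the only term, on all genes. P-values were adjusted by Benjamini-Hochberg over all genes at 0.05. CPM is relative to the TMM-scaled library size. SE is the size of the log2 change over the root of F. Log2 differences within a tag are of mean CPM. DESeq2 1.42.0, limma-voom (limma 3.58.1), other scalings and filters, a block, the tag and leaving out each library were alternatives. Figures used matplotlib 3.10.9.

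The members and all lists were chosen with earlier results of these data known. By rule, values per library are given for the largest and smallest change in each complex and for members that fell or did not pass. They are also given for paralog pairs and for partners that passed at a log2 change of at least 1. None of the promoter windows found held a motif of 8 or more letters. Camlg and Tmem147 lie outside the rule and were added after their values were seen. More than 10% of the longest coding transcript was shared with other genes in 10 members. Beside Srp54a, Srpr, Srprb and Sec61b, these were Emc2 (34.3%), Sec61g (22.6%), Ccdc47 (20.0%), Srp19 (19.4%), Srp9 (18.5%) and Spcs2 (16.1%). More than 10% of exonic bases was overlapped on the opposite strand in 8 members. A marker list and a promoter window are not reported here.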

Additional observations from a re-analysis of the deposited data

How the results depend on the processing

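Of the 43 members 28 kept direction and side of the threshold under each of 16 alternatives, and the counts that rose among SRP (6), receptor (2), Sec61 (3), TRAP (4), signal peptidase (5) and EMC (4) genes held in all 16. Library-size scaling moved the all-gene median by -0.17 (log2), cut the genes that rose to 2536, left 27 members higher and 5 lower and gave a member median of 0.48. Upper-quartile factors gave 28 and 5 members and a median of 0.56. Calls that were higher made up 48.3% with TMM, 38.2% with upper-quartile factors and 30.7% with library size. Signs turned, in members that did not pass, for Sec62 (-0.033), Emc3 (-0.0034), Sgta (-0.0092), Nomo1 (-0.0030) and Tmco1 (-0.069) with upper-quartile factors, for Sec61a2 (-0.075), Sec62 (-0.11), Emc3 (-0.081), Sgta (-0.087), Ncln (-0.040), Nomo1 (-0.081) and Tmco1 (-0.15) with library size, and without DMSO replicate 1 for Sec62 (leave-one-out range -0.013 to 0.157) and Tmco1 (-0.063 to 0.103). The cause was not tested. Get3 did not pass with library size (adjusted p = 0.0645, edgeR). Leaving out 1 library at a time gave 28 to 31 members higher, 1 to 5 lower (2 without DTG replicate 2 and 1 without DTG replicate 3) and a median of 0.61 to 0.73. At a log2 change of at least 1, 13 members were higher and 0 lower. Restricted to 1 tag, the members had a median of 0.74 (P4) or 0.59 (P5). Paralog shares differed by 8.32 (Sec11c), -7.84 (Sec61a2) and -11.03 (Tram2) percentage points from raw counts, and by 6.68 (Sec11c) with exon union length, which was chosen after seeing the data. Libraries with the same replicate number did not deviate together from their group means (correlations of -0.28, 0.0092 and -0.052 for replicates 1, 2 and 3). These are the replicate numbers of the titles, and the number within the library names was not used. With 3 libraries in each group such correlations cannot decide whether libraries were paired. With the replicate block 29 members rose and 3 fell, Tram2, Camlg and Emc1 being lost. In the same check 0 of the 6 libraries correlated best with the library of the same replicate number.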

Other observations

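Insertases of the Oxa1 family occur in 4 of the complexes described: Emc3 in the EMC, Get1 in the GET receptor, Tmco1 in the multipass translocon and Oxa1l in mitochondria. They were grouped after their values were seen. Their log2 changes were 0.09 ± 0.07, -0.42 ± 0.11, 0.02 ± 0.09 and -0.36 ± 0.10 (SE). Get1 and Oxa1l passed as lower, as did 29.3% of all genes tested, and Get1 no longer passed when DTG replicate 2 or 3 was left out. The partners Emc6, Camlg and Rab5if changed by 0.64, 0.25 and 0.26 log2 and passed as higher in edgeR's test, as did 27.4% of all genes tested. Camlg lost that call in 7 of 16 alternatives. Mmgt1, another EMC subunit, differed by 0.15 log2 and did not pass (edgeR, adjusted p = 0.337).

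Within-complex spread was uneven as well. In the TRAP complex the log2 changes ran from 0.99 to 1.87, in signal peptidase from 0.43 to 1.69 and in the SRP from 0.39 to 1.00, with Srp14, Spcs1 and Ssr1 at the low ends.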
